A study of Mus musculus with 20 samples.

Results

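Sorted mouse regulatory T cells (Tregs) that had received the partial agonist IL-2-REH for 4 hr were compared with Tregs that had received no cytokine. Of the 20 RNA-seq libraries of the series, 6 enter this comparison, 3 treated and 3 unstimulated. They were chosen by their sample titles (treatment IL-2-REH and time 4 hr, or time 0). No Treg library without cytokine is labelled 4 hr. A change with IL-2-REH and a change over 4 hr in culture can therefore not be told apart here. Every Treg library came from B6-Foxp3EGFP mice, in which green fluorescent protein marks cells that express Foxp3, and CD4+ cells of spleen and lymph node were first enriched and then sorted on this protein. The sample records give C57BL/6N as the strain, and the treated cells received 200 nM IL-2-REH. Nothing states whether the 3 libraries of a group came from separate mice. Sex-linked RNA, given below, differed between them, so they did not all come from the same mice. The p-values measure the spread between libraries of a group over all 15 Treg libraries, part of which may be technical. The cells were a bulk population, in which fewer cells of a type and less RNA per cell cannot be told apart.

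IL-2 binds a receptor of up to 3 chains, IL-2Rα, IL-2Rβ and the common γ chain, and brings IL-2Rβ and the γ chain together so that the kinases JAK1 and JAK3 can phosphorylate STAT5. Phosphorylated STAT5 dimers bind DNA motifs of the GAS type and activate genes such as Cish and the Socs genes, whose products dampen the signal again. Tregs hold IL-2Rα on their surface without activation and need IL-2 to persist. IL-2-REH is an IL-2 variant mutated at the face that touches the γ chain, so it brings the receptor chains together less well than IL-2 does.

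Among the genes with a GAS motif near their start were Cish, a feedback inhibitor, and Usp27x, which encodes an X-linked deubiquitinase and rose with IL-2-REH. The motif was searched as TTCNNNGAA, a sequence that reads the same on either strand, in RefSeq windows (GRCm38.p6) from 250 bases before to 50 bases after each annotated start. It was present in 8.30% of 32851 windows of all genes and in 5 of 26 windows of the genes called higher, where 3 of the 5 belong to Maged2 and the others to Usp27x and Spdl1. The CRE motif, bound by the CREB family, was searched as TGACGTCA and was present in 1.79% of all windows and in 2 of 22 windows of the genes called lower, those of Dusp1 and Plk2. Among genes called with the replicate block, the CRE was present in 3 of 295 windows of those lower (1.02%) and 3 of 160 of those higher (1.88%). The GAS motif was present there in 21 of 295 (7.12%) and 22 of 160 (13.8%). The GAS motif was also in 2 of the 22 windows of the genes called lower without the block, and the CRE in 0 of the 26 of those higher. Windows were found for 20 of the 24 genes called higher and 14 of the 23 called lower. The 4 windows below, shown 5′ to 3′ on the strand of the gene and ending 30 bases after the start, have the motif in capitals. The Cish window is chr9:107296409-107296688 on the plus strand and holds 2 GAS motifs, beginning 0 and 11 bases after the first transcribed base. That of Usp27x (chrX:7375801-7376080, minus strand) holds 1 GAS motif at -192, that of Dusp1 (chr17:26508443-26508722, minus strand) 1 CRE at -143, and that of Plk2 (chr13:110394794-110395073, plus strand) 1 CRE at -62. A match describes the letters of the window and not the binding of a factor.
Cish: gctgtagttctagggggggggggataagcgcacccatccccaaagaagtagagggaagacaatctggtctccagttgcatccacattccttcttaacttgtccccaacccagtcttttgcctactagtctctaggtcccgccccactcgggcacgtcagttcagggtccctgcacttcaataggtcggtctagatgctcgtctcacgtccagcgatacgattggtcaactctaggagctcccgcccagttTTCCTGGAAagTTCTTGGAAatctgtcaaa
Usp27x: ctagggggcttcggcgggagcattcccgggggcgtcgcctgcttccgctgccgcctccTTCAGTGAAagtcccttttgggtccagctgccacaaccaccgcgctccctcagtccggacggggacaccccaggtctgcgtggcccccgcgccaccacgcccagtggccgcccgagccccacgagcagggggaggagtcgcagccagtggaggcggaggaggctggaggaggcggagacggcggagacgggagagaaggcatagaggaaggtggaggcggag
Dusp1: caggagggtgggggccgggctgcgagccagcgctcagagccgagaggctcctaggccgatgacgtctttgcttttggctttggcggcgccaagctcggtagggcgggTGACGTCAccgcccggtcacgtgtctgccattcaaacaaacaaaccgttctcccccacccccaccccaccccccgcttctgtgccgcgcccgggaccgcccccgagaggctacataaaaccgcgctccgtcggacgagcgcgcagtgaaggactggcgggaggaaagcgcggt
Plk2: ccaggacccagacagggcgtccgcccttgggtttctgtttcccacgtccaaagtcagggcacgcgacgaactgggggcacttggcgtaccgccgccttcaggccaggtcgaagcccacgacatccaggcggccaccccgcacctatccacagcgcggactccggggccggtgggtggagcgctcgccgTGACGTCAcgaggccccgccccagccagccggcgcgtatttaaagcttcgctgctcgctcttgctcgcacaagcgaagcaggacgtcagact

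The 6 libraries held between 25363734 and 51867572 reads on genes. Treg markers were abundant in all of them, with Foxp3 at 65.2 to 124 RPKM (reads per kilobase of exon, scaled to the mapped reads of the library) while the CD8+ T cell markers Cd8a and Cd8b1 were at 0.103 to 1.84 and 5.59 to 10.8 RPKM. Unstimulated replicate 1 stood apart from its group. Across genes, its log2 CPM correlated with unstimulated replicates 2 and 3 at r = 0.926 and 0.928, while these correlated with each other at 0.985, and it correlated at 0.985 with replicate 1 of the Tregs given IL-2-REH for 90 min. Libraries with the same replicate number deviated from their group means together, with r of 0.542, 0.478 and 0.416 across genes for numbers 1, 2 and 3, against -0.474 to 0.203 for different numbers (genes are not independent replicates). RNA of other cells followed the numbers too. Summed RPKM of 10 neutrophil markers was 228 in unstimulated replicate 3 and 300.4 in IL-2-REH replicate 3. It was 5.98 to 8.56 in the other 4 libraries. Sex-linked RNA also followed the numbers. Xist was at 65.2 and 43.6 RPKM in the libraries numbered 2 and under 0.1 in the others. Ddx3y was at 0.00295 and 0 RPKM in the libraries numbered 2. It was at 44.6 and 20.8 RPKM in those numbered 1, and 27.3 and 20.005 RPKM in those numbered 3. The study lists its Foxp3 reporter mice as female, yet Ddx3y is a Y-linked gene. By these RNAs the libraries numbered 2 had a female pattern and those numbered 1 and 3 a male one, so sex went with the replicate number. Each result is therefore given from a fit without and, where the call differs, with the replicate number as a block. The counts over all genes and for the gene lists are also given without unstimulated replicate 1.

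Measured against the spread over all 15 Treg libraries, few genes differed at 4 hr in the fit without the block. About as many rose as fell. Fits with the block or without unstimulated replicate 1 called many more, and those that left out another library called fewer. A fit of the 6 compared libraries alone called 1 gene, or 6 with the block. In edgeR's quasi-likelihood test over all 15 Treg libraries, 47 of 15009 genes (0.313%) had an adjusted p under 0.05, of which 24 (0.16%) rose and 23 (0.153%) fell, with median log2 fold changes of 1.59 and -1.78. For all 47 the 3 pairs of equal replicate number shared a direction, the absolute log2 fold change exceeded 1 in 44 and 2 in 16, and 1998 genes had an unadjusted p under 0.05. With the replicate block, 455 genes (3.03%) were called, 152 higher (1.01%) and 303 lower (2.02%), and 449 of them moved in the same direction in every pair. The number of calls rested on single libraries. Without unstimulated replicate 1, 1073 of 15494 genes (6.93%) were called, 512 higher (3.3%) and 561 lower (3.62%), and without replicate 1 in every group 1545 of 14477 (10.7%), 735 higher (5.08%) and 810 lower (5.6%). Leaving out unstimulated replicate 2 or 3 left 17 or 2 genes, leaving out IL-2-REH replicate 1, 2 or 3 left 18, 9 or 6, and leaving out replicate 2 or 3 in every group left 0 and 0 by edgeR, with 796 and 676 genes at an unadjusted p under 0.05. In all 9 of these fits the 47 genes kept their direction with an unadjusted p under 0.05. All 47 were also called with the block, without unstimulated replicate 1 and by DESeq2, and 19 of them by limma on log2(RPKM + 1). All these fits reuse libraries from which the 47 were chosen, so they are no independent evidence for them.

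**Figure D1:**
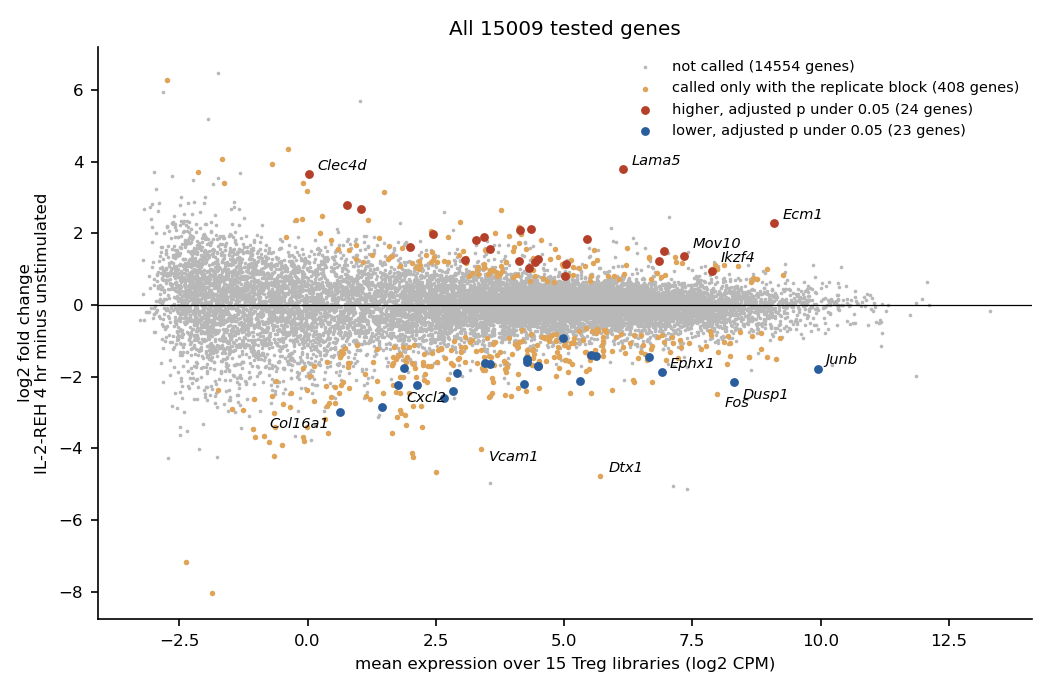
Log2 fold change between IL-2-REH at 4 hr and unstimulated Tregs (y axis) against mean expression in log2 CPM over 15 Treg libraries (x axis), 1 point for each of 15009 genes. The 24 genes called higher (red) and 23 called lower (blue) lie across the range of expression, and the further genes called with the replicate block (orange) are more often below 0 than above it.

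Lama5, the α5 chain of laminins (GRCm38 chromosome 2, minus strand, 180176373 to 180225904, overlapping Mir7005 and Gm52542), had the highest log2 fold change of the 24 genes called higher. It had 0.240, 0.475 and 0.322 RPKM in unstimulated replicates 1, 2 and 3 and 3.39, 4.47 and 6.23 RPKM with IL-2-REH. Its lowest treated library was well above its highest unstimulated one, a 13.99-fold difference (log2 fold change 3.81, SE 0.38, adjusted p = 0.0013). Ecm1, a secreted glycoprotein of the extracellular matrix (chromosome 3, minus strand, 95734147 to 95739876), was by far the most abundant of the genes called higher. It had 41.3, 60.2 and 44.4 RPKM without cytokine and 189.6, 215 and 292 RPKM with IL-2-REH, 4.87-fold more (log2 fold change 2.28, SE 0.28, adjusted p = 0.0044), and the groups did not overlap. The microRNA gene Mir7014 lies inside Ecm1 and was called higher with the block only (adjusted p = 0.022), but its reads cannot be separated from those of Ecm1.

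Sema7a, a semaphorin anchored to the membrane by a lipid (chromosome 9, plus strand, 57939596 to 57962865), differed little between libraries of a group. Its RPKM was 0.752, 0.841 and 0.799 without cytokine and 3.14, 3.18 and 2.69 with IL-2-REH, and every treated library was above every unstimulated one (log2 fold change 1.91, SE 0.21, adjusted p = 0.0023). Gpld1, a phospholipase that cuts such lipid anchors (chromosome 13, plus strand, 24937785 to 24991936), was at 0.815, 0.909 and 0.625 RPKM and rose to 4.61, 3.22 and 2.35 RPKM (log2 fold change 2.12, SE 0.26, adjusted p = 0.0044), again without overlap. Part of its reads is uncertain because Mrs2 and other annotated genes overlap it. Podxl, a sialomucin of the podocalyxin family (chromosome 6, minus strand, 31519493 to 31563937), and Clec4d, a C-type lectin receptor best known from myeloid cells (chromosome 6, plus strand, 123262107 to 123275268), were scarce. Podxl had 0.0362, 0.0360 and 0.0556 RPKM and then 0.417, 0.241 and 0.239 RPKM (log2 fold change 2.80, SE 0.40, adjusted p = 0.013), which rested on 12 to 18 reads in the unstimulated and 77 to 97 reads in the treated libraries. Clec4d had 0.0361, 0.0616 and 0.123 RPKM without cytokine, from 3 to 10 reads, and 0.892, 0.962 and 0.964 RPKM with IL-2-REH (log2 fold change 3.66, SE 0.62, adjusted p = 0.026). Neither gene's groups overlapped, but 5 of the 47 called genes, these included, had a mean under 1 RPKM in both groups.

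**Figure D2:**
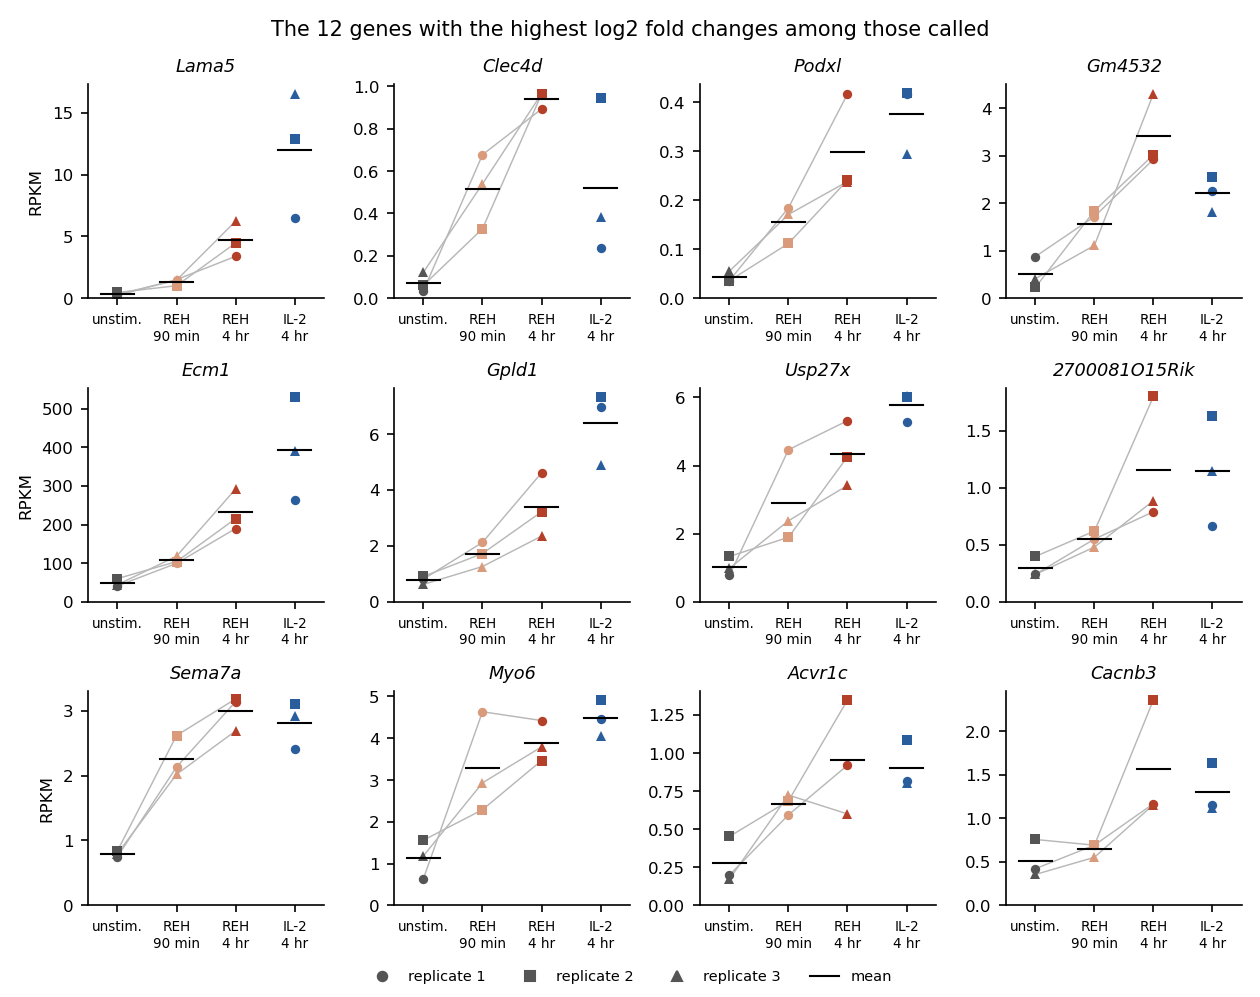
RPKM (y axis) of the 12 genes with the highest log2 fold changes among those called, in unstimulated Tregs, after IL-2-REH for 90 min and 4 hr and after IL-2 for 4 hr (x axis), with 1 symbol per library, lines joining libraries with the same replicate number and bars at the means. In each panel the 3 libraries at 4 hr of IL-2-REH lie above the 3 unstimulated ones.

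Acvr1c, a type I receptor for TGF-β family ligands, had 0.200, 0.453 and 0.173 RPKM without cytokine and 0.920, 1.35 and 0.600 RPKM with IL-2-REH (log2 fold change 1.82, SE 0.34, adjusted p = 0.039). Cacnb3, a β subunit of voltage-gated calcium channels, had 0.422, 0.758 and 0.356 RPKM and then 1.17, 2.36 and 1.16 RPKM (log2 fold change 1.62, SE 0.31, adjusted p = 0.044). In both genes IL-2-REH replicate 2 was the highest library and the groups did not overlap. Kcnip2, which binds potassium channels, went from 3.73, 4.68 and 3.60 to 7.51, 10.1 and 11.2 RPKM (log2 fold change 1.27, SE 0.24, adjusted p = 0.039). Atp1b1, the β1 subunit of the sodium-potassium pump, was more abundant, at 9.10, 18.5 and 15.02 RPKM and then 35.7, 34.6 and 27.5 RPKM (log2 fold change 1.23, SE 0.21, adjusted p = 0.030). Unstimulated replicate 1 was the lowest Atp1b1 library and the groups did not overlap for either gene.

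Myo6, a myosin that moves toward the minus end of actin filaments, had 0.642, 1.56 and 1.19 RPKM in unstimulated libraries and 4.42, 3.47 and 3.79 RPKM in treated ones (log2 fold change 1.83, SE 0.25, adjusted p = 0.011). Spdl1, which brings dynein to kinetochores, rose from 1.01, 1.62 and 1.35 to 2.54, 5.27 and 3.83 RPKM (log2 fold change 1.55, SE 0.24, adjusted p = 0.022). Gpsm2, which orients the mitotic spindle, rose from 1.34, 1.95 and 1.42 to 3.14, 4.25 and 2.98 RPKM (log2 fold change 1.15, SE 0.21, adjusted p = 0.036). None of these groups overlapped, and Gpsm2 is described again below because it stayed under its level with IL-2. Tctn3, a protein of the base of the cilium, was 2.29-fold higher (log2 fold change 1.19, SE 0.22, adjusted p = 0.038).

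Elovl6, which lengthens fatty acids, had 6.06, 4.30 and 3.08 RPKM and 14.8, 14.3 and 10.1 RPKM with IL-2-REH (log2 fold change 1.52, SE 0.30, adjusted p = 0.0498). Fdps, which makes farnesyl diphosphate for cholesterol synthesis and prenylation, had 11.5, 12.6 and 11.2 RPKM and then 19.6, 19.98 and 21.7 RPKM (log2 fold change 0.80, SE 0.15, adjusted p = 0.045), with a smaller standard error than all called genes but Slc45a4. Eno2, the enolase typical of neurons, was 2.38-fold higher (log2 fold change 1.25, SE 0.24, adjusted p = 0.045). Of the 30 tested genes of cholesterol and fatty acid synthesis, Fdps alone was called in either fit, against 0.16% of all genes called higher without the block. The median log2 fold change of these 30 was -0.04, against 0.01 over all tested genes. Without unstimulated replicate 1, Fdps was called higher and Lss and Scd2 lower, against 3.3% and 3.62% of all genes.

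Ikzf4, which encodes Eos, a zinc finger partner of Foxp3, had 21.9, 23.1 and 19.99 RPKM without cytokine and 34.4, 46.2 and 46.1 RPKM with IL-2-REH (log2 fold change 0.96, SE 0.17, adjusted p = 0.030). Mov10, an RNA helicase, had 9.60, 16.3 and 11.3 RPKM and then 28.3, 32.95 and 32.9 RPKM (log2 fold change 1.37, SE 0.20, adjusted p = 0.013). For both, the treated libraries lay clearly above the unstimulated ones. Usp27x, whose promoter window is printed above, had 0.775, 1.33 and 0.985 RPKM and rose to 5.31, 4.26 and 3.41 RPKM (log2 fold change 2.09, SE 0.26, adjusted p = 0.0044). Maged2, a protein of the MAGE family, rose 2.06-fold (log2 fold change 1.05, SE 0.19, adjusted p = 0.034), and Ptov1 rose 2.33-fold (log2 fold change 1.22, SE 0.23, adjusted p = 0.039). The reads of 2700081O15Rik and Gm4532, which rose 3.95-fold and 6.47-fold, are uncertain, because the first overlaps Rtn3 and the second Septin1 and Zfp553 and the counting is not stated to use strand.

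Junb and Dusp1 had the highest unstimulated levels of the genes that fell, and both are immediate early genes, which cells transcribe within minutes of a stimulus. Junb, a subunit of the AP-1 transcription factor (chromosome 8, minus strand, 84976909 to 84978748), had 531, 550.4 and 737 RPKM in unstimulated replicates 1, 2 and 3 and 141, 226 and 170.2 RPKM with IL-2-REH. It was 3.43-fold lower (log2 fold change -1.78, SE 0.33, adjusted p = 0.038), with no overlap. Dusp1, a phosphatase that switches off MAP kinases (chromosome 17, minus strand, 26505591 to 26508472), had 221, 214 and 315 RPKM and then 38.5, 88.3 and 46.0 RPKM (log2 fold change -2.15, SE 0.35, adjusted p = 0.024). Plk2, a polo-like kinase (chromosome 13, plus strand, 110395044 to 110400844), had 16.7, 10.3 and 27.8 RPKM and then 3.19, 5.07 and 4.53 RPKM (log2 fold change -2.13, SE 0.38, adjusted p = 0.032). The promoter windows of Dusp1 and Plk2, printed above, each hold a CRE.

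Over the whole list of 29 immediate early genes, 2 were called lower without the block (Junb and Dusp1), against 0.153% of all tested genes. With the block 8 were lower, against 2.02%. Without unstimulated replicate 1, 7 were lower, against 3.62%, and 2 others (Fosl2 and Crem) were higher, against 3.3%. The list's median log2 fold change was -0.54 without and -0.88 with the block, against 0.01 and 0.0012 over all genes, and in 10 of the 29 every treated library was below every unstimulated one, against 8.36% of all genes (7.8% the other way). Fos, the partner of the Jun proteins in AP-1, had 146, 132 and 341 RPKM without cytokine and 13.3, 61.0 and 38.6 RPKM with IL-2-REH (log2 fold change -2.69 with the block, SE 0.42, adjusted p = 0.0049). Unstimulated replicate 3 was the highest Fos library, and the fit without the block did not call the gene (adjusted p = 0.11). Klf4, a zinc finger factor, had 30.7, 8.83 and 34.1 RPKM and then 3.49, 5.60 and 5.69 RPKM (log2 fold change -2.36 with the block, SE 0.46, adjusted p = 0.017), and it just missed the threshold without the block (adjusted p = 0.053). Zfp36, which encodes tristetraprolin and directs decay of AU-rich mRNA, had 100.1, 266 and 307 RPKM and then 42.5, 93.7 and 76.9 RPKM (log2 fold change -1.60 with the block, SE 0.29, adjusted p = 0.011). Its unstimulated replicate 1 was far below replicates 2 and 3, yet above every treated library. Egr1, Jund and Dusp2 made up the rest, with log2 fold changes of -1.38, -0.88 and -0.84 with the block (adjusted p = 0.021, 0.042 and 0.015). The other 21 members passed neither fit, among them Jun (log2 fold change -1.81, adjusted p = 0.076 with the block), Nr4a1 (0.0012, 0.65) and Ier2 (-0.04, 0.91).

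Several genes with deep falls in the fit without the block were at low levels. Cxcl2, a chemokine that attracts neutrophils (chromosome 5, plus strand, 90903899 to 90905938), had 4.56, 2.72 and 6.00 RPKM and then 0.995, 0.950 and 0.915 RPKM (log2 fold change -2.25, SE 0.33, adjusted p = 0.013). Its 3 treated libraries were within 0.1 RPKM of each other and below all unstimulated ones. Cpq, a secreted carboxypeptidase, had 1.62, 2.14 and 2.02 RPKM and then 0.399, 0.232 and 0.164 RPKM (log2 fold change -2.86, SE 0.50, adjusted p = 0.030). Dscam, a cell adhesion molecule best known from neurons, had 0.921, 0.718 and 0.992 RPKM and then 0.245, 0.110 and 0.0905 RPKM (log2 fold change -2.58, SE 0.42, adjusted p = 0.024). Both fell in every pair without overlap. Col16a1, the chain of collagen XVI, had the lowest log2 fold change of the called genes, at 0.284, 0.377 and 0.484 RPKM and 0.0352, 0.0648 and 0.0444 RPKM (log2 fold change -2.98, SE 0.56, adjusted p = 0.039). Susd2, a membrane protein with a sushi domain, was 5.30-fold lower (log2 fold change -2.41, SE 0.38, adjusted p = 0.022), and Serpina3f, a serine protease inhibitor, 4.66-fold lower (log2 fold change -2.22, SE 0.43, adjusted p = 0.0498).

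**Figure D3:**
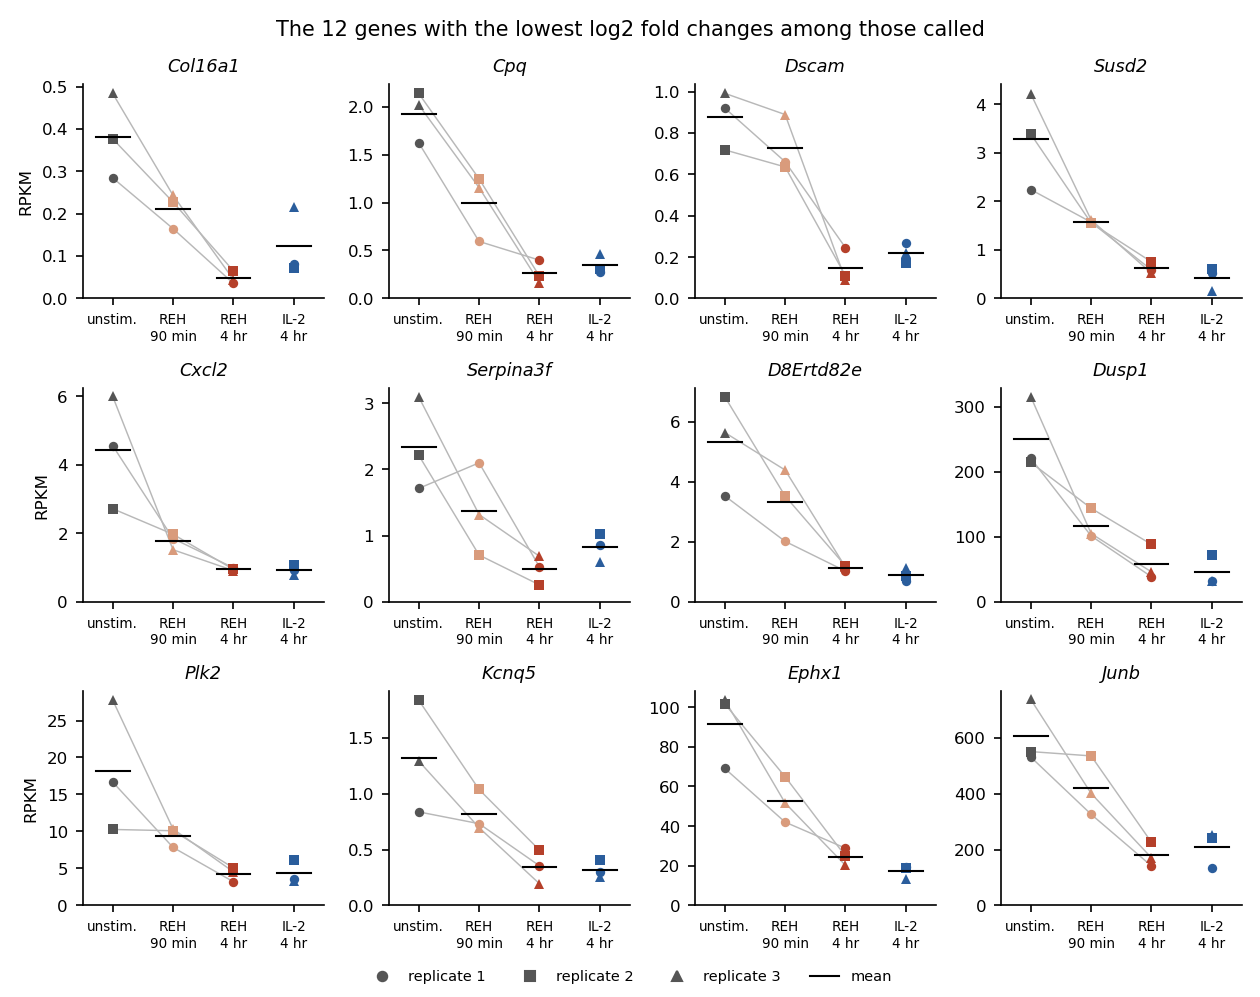
RPKM (y axis) of the 12 genes with the lowest log2 fold changes among those called, in the same groups and with the same symbols as for the higher genes (x axis). The 3 libraries at 4 hr of IL-2-REH lie below the 3 unstimulated ones in each panel, and the library at 90 min lies between those of the same number in all panels but replicate 1 of Serpina3f.

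Cxcr5, the receptor that leads cells to the chemokine of B cell follicles (chromosome 9, minus strand, 44511787 to 44526444), had 10.9, 17.8 and 20.6 RPKM and then 6.02, 6.81 and 5.67 RPKM (log2 fold change -1.40, SE 0.26, adjusted p = 0.038). Tox2, an HMG-box factor, had 5.41, 8.004 and 6.74 RPKM and then 2.03, 3.04 and 1.38 RPKM (log2 fold change -1.65, SE 0.26, adjusted p = 0.024). Sit1, a transmembrane adaptor that dampens T cell receptor signals, had 16.0, 27.2 and 25.9 RPKM and then 7.87, 7.13 and 7.64 RPKM (log2 fold change -1.58, SE 0.26, adjusted p = 0.026). All 3 genes had treated libraries below every unstimulated one. Arhgap15, which turns off the GTPase Rac, had 27.0, 44.9 and 52.0 RPKM and then 15.4, 16.4 and 12.9 RPKM (log2 fold change -1.46, SE 0.25, adjusted p = 0.030). Epsti1, an interferon-inducible gene, had 19.0, 42.3 and 42.6 RPKM and then 14.6, 11.9 and 11.1 RPKM (log2 fold change -1.43, SE 0.26, adjusted p = 0.038). In Epsti1, as in several genes that fell, unstimulated replicate 1 had less than the other unstimulated libraries but still more than any treated one. Ephx1, the microsomal epoxide hydrolase, was the most abundant of the rest, at 69.1, 102 and 104 RPKM and then 28.8, 24.8 and 20.2 RPKM (log2 fold change -1.88, SE 0.28, adjusted p = 0.015). Rnf43, a ubiquitin ligase that removes Frizzled receptors, was 2.85-fold lower (log2 fold change -1.51, SE 0.28, adjusted p = 0.039), and Kcnq5, a potassium channel, was 3.76-fold lower (log2 fold change -1.91, SE 0.36, adjusted p = 0.039). The 6 other genes called lower were D8Ertd82e, Naip7, A430107P09Rik, Slc45a4, Gm17757 and Gm18853, with log2 fold changes of -2.21 to -0.92. Gm17757 and Gm18853 are near copies with almost the same reads, so they count as a single uncertain locus.

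Of the inhibitors that cytokine signals induce against themselves, 3 rose with the block, and none passed the threshold in the fit of all libraries without it. Cish, whose product blocks STAT5 docking (chromosome 9, plus strand, 107296659 to 107302784), had 54.7, 65.5 and 54.0 RPKM without cytokine and 85.9, 112 and 90.1 RPKM with IL-2-REH. The groups did not overlap, but the change was small, and the fit with the block called it (log2 fold change 0.72 with the block, SE 0.17, adjusted p = 0.035) where the fit without it did not (adjusted p = 0.12). Socs2 had 6.51, 18.1 and 15.5 RPKM and then 36.3, 27.6 and 33.8 RPKM (log2 fold change 1.32 with the block, SE 0.28, adjusted p = 0.026, adjusted p = 0.061 without it). Socs1, which inhibits JAK1, had 10.3, 25.4 and 15.2 RPKM and then 53.8, 37.4 and 30.5 RPKM (log2 fold change 1.23 with the block, SE 0.30, adjusted p = 0.043, adjusted p = 0.15 without it). Unstimulated replicate 1 was the lowest library for Socs1 and Socs2, and without that library Cish and Socs2 were called (adjusted p = 0.039 and 0.014) and Socs1 was not (adjusted p = 0.13). Of the 21 tested inhibitors 3 were called higher and 1 lower with the block, against 1.01% and 2.02% of all genes, and none without it. The inhibitor called lower with the block was Dusp6, the phosphatase of ERK, at 6.43, 9.44 and 11.5 RPKM and then 1.84, 6.20 and 2.73 RPKM (log2 fold change -1.49 with the block, SE 0.29, adjusted p = 0.015). Without unstimulated replicate 1, Dusp6 was not called (adjusted p = 0.13). Ptpn6, called in neither fit of all libraries, was lower there (log2 fold change -1.73, adjusted p = 0.00069). In that fit 2 of the 21 were called higher and 1 lower, against 3.3% and 3.62% of all genes.

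Of the receptor and its kinases, Jak3 alone was called with the block. It fell, and 2.02% of all genes were called lower in that fit. Jak3, the kinase bound to the γ chain, had 20.7, 54.7 and 37.5 RPKM and then 10.2, 15.9 and 12.2 RPKM (log2 fold change -1.48 with the block, SE 0.19, adjusted p = 0.0016, adjusted p = 0.074 without it), and the groups did not overlap. Il2ra, which encodes IL-2Rα, had 62.7, 117 and 91.5 RPKM and then 133, 151 and 90 RPKM, and the groups overlapped (log2 fold change 0.48, adjusted p = 0.47, 0.31 with the block). Il2rb and Il2rg had log2 fold changes of -0.01 and -0.37 (adjusted p = 0.99 and 0.61). Of 11 tested members of this list, Stat3, Stat5a and Stat5b were called higher without unstimulated replicate 1 but not with it (log2 fold change 1.14, 2.11 and 1.29, adjusted p = 0.0096, 0.00033 and 0.0028). Jak3 was called lower without that library too (log2 fold change -1.77, adjusted p = 0.0082). Of all genes, 3.3% were called higher and 3.62% lower in that fit.

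Of 30 genes listed as targets of STAT5 or IL-2, Ecm1 was the only one called without the block, and the median log2 fold change of the list was 0.06. With the block, Ecm1 was called higher and Ifng, Tnfrsf8 and Il1r1 lower, against 1.01% and 2.02% of all genes. Without unstimulated replicate 1 the balance turned. In that fit, 5 were called higher (Ecm1, Bcl2l1, Pim1, Tnfrsf1b and Il1rl1) and 2 lower (Tnfrsf8 and Ccnd2), against 3.3% and 3.62% of all genes. The list's median was then 0.21. Ifng, which encodes interferon-γ, had 2.3997, 4.46 and 8.83 RPKM without cytokine and 0.361, 0.972 and 0.862 RPKM with IL-2-REH (log2 fold change -2.98 with the block, SE 0.69, adjusted p = 0.036, adjusted p = 0.24 without it). Tnfrsf8, the TNF receptor family member CD30, had 2.21, 3.92 and 2.49 RPKM and then 1.31, 1.02 and 0.472 RPKM (log2 fold change -1.66 with the block, SE 0.37, adjusted p = 0.029). Neither gene's groups overlapped. Bcl2 had 11.1, 35.8 and 25.8 RPKM and then 24.9, 27.3 and 23.1 RPKM (log2 fold change 0.10, adjusted p = 0.93), and its sign turned without unstimulated replicate 1, its lowest library (-0.20, adjusted p = 0.66). Myc had 15.2, 35.9 and 27.1 RPKM and then 25.1, 60.6 and 38.2 RPKM, higher in the treated library of every pair but within the spread (log2 fold change 0.69, adjusted p = 0.57, 0.083 with the block). Lta, Gzmb, Tnf and Cdk6 had log2 fold changes of 0.81, 0.43, 0.25 and -0.05 (adjusted p = 0.51, 0.82, 0.82 and 0.95), and all 4 had overlapping groups. By quantitative PCR of Tregs at the same dose and time, the study reported that IL-2-REH raised Bcl2, Myc, Ifng, Gzmb and Lta. For Ifng that is the opposite direction to the fall here, which was called with the block but not without it. Nor was Ifng called without unstimulated replicate 1 (log2 fold change -3.14, adjusted p = 0.11). Why the quantitative PCR and these libraries differ was not tested.

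Of 29 tested genes of Treg identity and suppression, Ikzf4 was called without the block, and Ikzf4, Tnfrsf18 and Pdcd1 were called higher and Lag3 lower with it, against 0.16% of all genes higher without and 1.01% higher and 2.02% lower with the block. Foxp3 had 67.0, 92.8 and 65.2 RPKM and then 113, 124 and 67.2 RPKM, with overlap (log2 fold change 0.44, adjusted p = 0.48, 0.35 with the block), and Ctla4 had 589, 273 and 351 RPKM and then 225, 276 and 235 RPKM (adjusted p = 0.43). Lag3, an inhibitory receptor for MHC class II, had 7.78, 15.1 and 13.6 RPKM and then 2.67, 3.78 and 4.78 RPKM (log2 fold change -1.68 with the block, SE 0.21, adjusted p = 0.0012, adjusted p = 0.084 without it), with no overlap. Tnfrsf18, the costimulatory receptor GITR, had 274, 124 and 93.0 RPKM and then 393, 326 and 307 RPKM (log2 fold change 1.13 with the block, SE 0.28, adjusted p = 0.047). Pdcd1, which encodes PD-1, had 113, 21.6 and 16.5 RPKM and then 134, 121 and 98.1 RPKM (log2 fold change 1.63 with the block, SE 0.41, adjusted p = 0.0499). For both genes unstimulated replicate 1 stood out toward the treated level, and without it the log2 fold changes were 1.75 and 2.72 (adjusted p = 0.0011 and 0.0042). Lrrc32, Tnfrsf4 and Tnfrsf9, which encode GARP, OX40 and 4-1BB, were called higher in that fit but in neither fit of all libraries (log2 fold change 1.65, 1.91 and 2.57, adjusted p = 0.0013, 0.0042 and 0.0080). Without unstimulated replicate 1, 6 of the 29 were called higher and 1 (Lag3) lower, against 3.3% and 3.62% of all genes.

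The same library decided Ramp3 and Gls2, a receptor chaperone and a glutaminase. Ramp3 had 219, 2.91 and 2.25 RPKM in unstimulated replicates 1, 2 and 3 and 104, 152 and 134 RPKM with IL-2-REH, so the treated library was lower than its unstimulated pair in replicate 1 and higher in the others. Its log2 fold change was 0.64 (SE 1.12, adjusted p = 0.85) with all libraries, 1.74 with the block (adjusted p = 0.47) and 5.74 without unstimulated replicate 1 (adjusted p = 1.2e-05). Gls2 had 5.42, 0.110 and 0.0397 RPKM and then 6.07, 8.59 and 5.85 RPKM, which did not overlap. Its log2 fold change was 1.72 (adjusted p = 0.53) with all libraries and 6.57 (adjusted p = 1.2e-05) without unstimulated replicate 1. Msrb3, a methionine sulfoxide reductase, had the same pattern at 3.75, 0.259 and 0.257 RPKM and 8.24, 5.60 and 2.59 RPKM, and was called with the block (adjusted p = 0.020) but not without it (0.54).

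**Figure D4:**
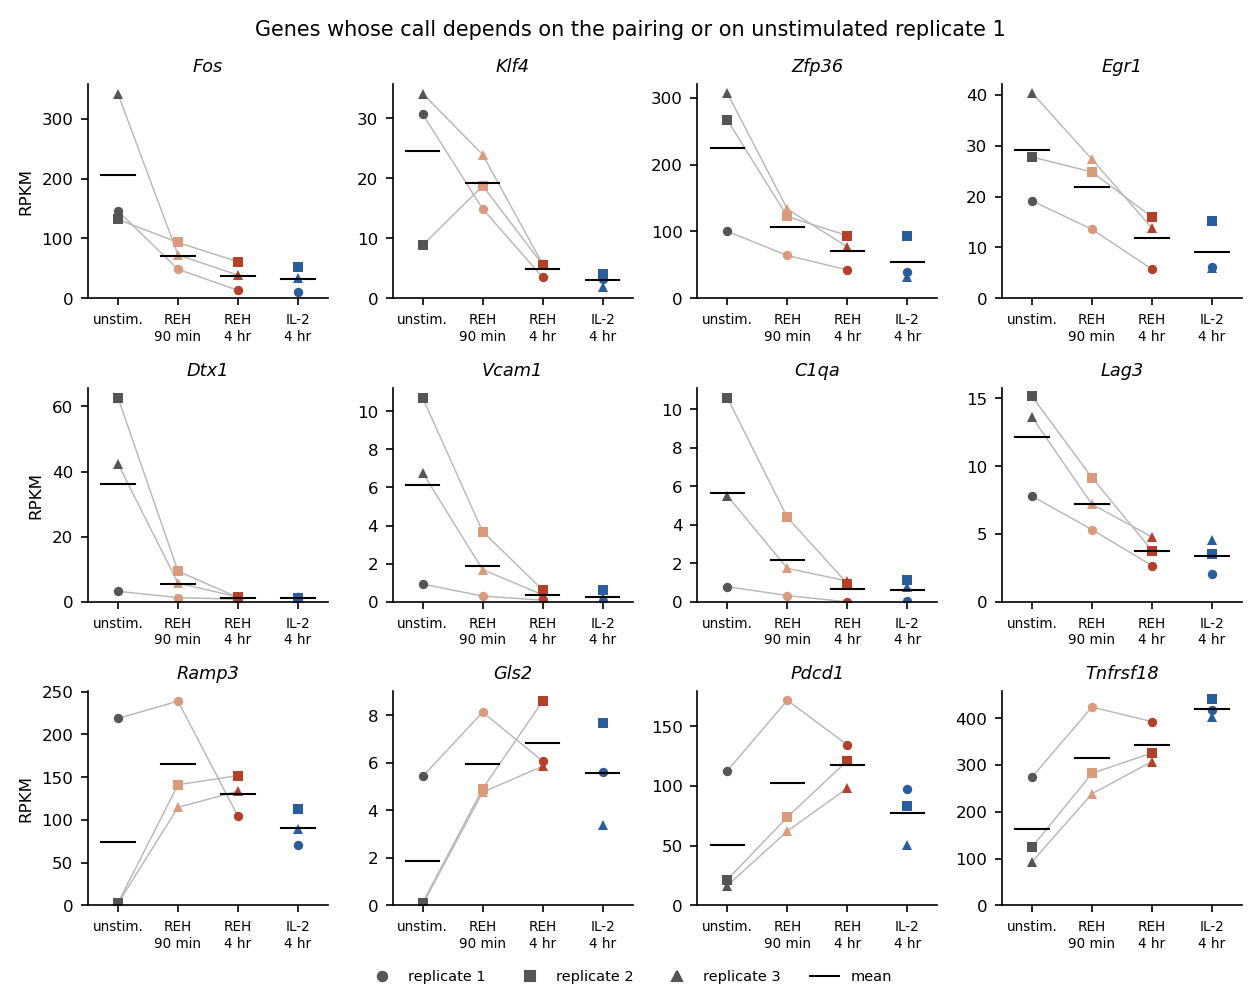
RPKM (y axis) of 12 genes that were not called in the fit of all libraries without the block but were called with the replicate block, without unstimulated replicate 1, or both, in the same groups and symbols as in the plots of the higher and lower genes (x axis). Fos, Klf4, Zfp36, Egr1, Dtx1, Vcam1, C1qa and Lag3 fall along lines of different heights, and in Ramp3, Gls2, Pdcd1 and Tnfrsf18 the unstimulated library of replicate 1 (circle) lies far above the other unstimulated ones.

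Dtx1, a ubiquitin ligase of the Notch pathway (chromosome 5, minus strand, 120680203 to 120711867), had the deepest fall of any gene named here. It had 3.24, 62.7 and 42.4 RPKM in unstimulated libraries and 0.802, 1.36 and 1.50 RPKM with IL-2-REH (log2 fold change -4.26 with the block, SE 0.62, adjusted p = 0.0035, adjusted p = 0.061 without it). Unstimulated replicate 1 was again far below the others, yet above every treated library. Of the 26 genes of quiescence and lymph node homing, Dtx1 and Txnip, a thioredoxin inhibitor, were called lower with the block, against 2.02% of all genes, and none without it. The list's median log2 fold change was -0.31. Txnip had 146, 309 and 309 RPKM and then 95.8, 203 and 106 RPKM, which overlapped between numbers but fell within each pair (log2 fold change -0.90 with the block, SE 0.21, adjusted p = 0.036). Klf2, Ccr7 and S1pr1, which keep T cells circulating through lymph nodes, had log2 fold changes of -0.26, 0.77 and -0.17 and were not called (adjusted p = 0.62, 0.47 and 0.82 with the block). Without unstimulated replicate 1, Ccr7 was called higher (log2 fold change 2.14, adjusted p = 0.0086), and Dtx1 and Ddit4 lower, against 3.3% and 3.62% of all genes. Among 23 chemokine and trafficking receptors, Cxcr5 and Gpr183, which binds oxysterols, were called lower with the block, against 2.02% of all genes. Gpr183 was at 13.5, 14.6 and 17.8 RPKM and then 6.94, 8.37 and 6.04 RPKM (log2 fold change -1.14 with the block, SE 0.26, adjusted p = 0.035). Without unstimulated replicate 1, Ccr7 was higher and Cxcr5 and Ccr9 lower among the 23, against 3.3% and 3.62% of all genes. Gpr183 was not called there (adjusted p = 0.054).

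Of 19 genes of the amino acid stress response, none was called without the block, and with it Trib3 and Ddit3 were higher and Ppp1r15a and Psat1 lower, against 1.01% and 2.02% of all genes. Without unstimulated replicate 1, Ddit3 and Ppp1r15a were not called (adjusted p = 0.083 and 0.16). Trib3 and Cebpg were higher and Psat1 lower in that fit, against 3.3% and 3.62% of all genes. Trib3, a pseudokinase induced by amino acid shortage, had 1.41, 1.29 and 1.24 RPKM and then 7.01, 3.62 and 4.96 RPKM (log2 fold change 1.93 with the block, SE 0.25, adjusted p = 0.0014), and Ppp1r15a, which directs dephosphorylation of eIF2α, had 144, 174 and 314 RPKM and then 41.3, 116 and 114 RPKM (log2 fold change -1.34 with the block, SE 0.26, adjusted p = 0.015). The groups overlapped for neither. Of 30 interferon-stimulated genes, Isg20 and Mx2 were lower with the block, against 2.02% of all genes, and 9 were lower without unstimulated replicate 1, against 3.62% of all genes. The list's median was -0.62 in the fit of all libraries. Isg20, an exonuclease, had 7.41, 18.2 and 13.6 RPKM and then 6.10, 4.13 and 3.66 RPKM (log2 fold change -1.48 with the block, SE 0.31, adjusted p = 0.022).

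None of 35 genes of cell cycle entry and DNA replication was called by edgeR without the block or with it (median log2 fold change -0.21). Without unstimulated replicate 1, 1 was higher and 2 were lower, against 3.3% and 3.62% of all genes. Of 30 genes of ribosome biogenesis, Utp20 and Rrp12 were lower with the block (log2 fold change -1.26 and -0.99, adjusted p = 0.012 and 0.041), against 2.02% of all genes. In 9 of the 30 every treated library was below every unstimulated one, against 8.36% of all genes. Of 26 genes of glycolysis and nutrient transport, the glucose transporter Slc2a3 was lower with the block, against 2.02% of all genes. It was at 10.7, 27.7 and 25.9 RPKM and then 8.54, 12.8 and 7.02 RPKM (log2 fold change -1.12 with the block, SE 0.23, adjusted p = 0.022). Of 24 genes of thioredoxin and glutathione metabolism, the reductase Txnrd3 was higher with the block (log2 fold change 0.82 with the block, SE 0.20, adjusted p = 0.049), against 1.01% of all genes. Txnrd1 was not called (log2 fold change -0.13, adjusted p = 0.69 with the block). In the fit without unstimulated replicate 1, Utp20 was the only ribosome biogenesis gene called, and it was lower. Of the glycolysis and transport list, Slc16a3 was higher there (log2 fold change 2.97, adjusted p = 8.7e-05) and Slc2a3 lower. Of the redox list, Txnrd3 and Gpx4 were higher and Hmox1 lower, against 3.3% and 3.62% of all genes. In the 10 lists without a call by edgeR in the fit without the block, DESeq2 called 0 to 7 members, against 565 genes in all. Between 1 and 16 members of such a list had an unadjusted p under 0.05 by edgeR, against 1998 of 15009 genes. Examples are 1 of 26 for glycolysis and nutrient transport and 16 of 30 for interferon-stimulated genes. Of 9 genes that the study names in its Tregs or CD8+ T cells, none was called without the block. Ifng was called lower with it, against 2.02% of all genes, though the study's quantitative PCR gave a rise. Ramp3 and Gls2 were called higher without unstimulated replicate 1, against 3.3% of all genes. The median log2 fold change of the 9 was 0.43, which is no independent evidence, since the study picked some of them from RNA-seq of this series.

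**Figure D5:**
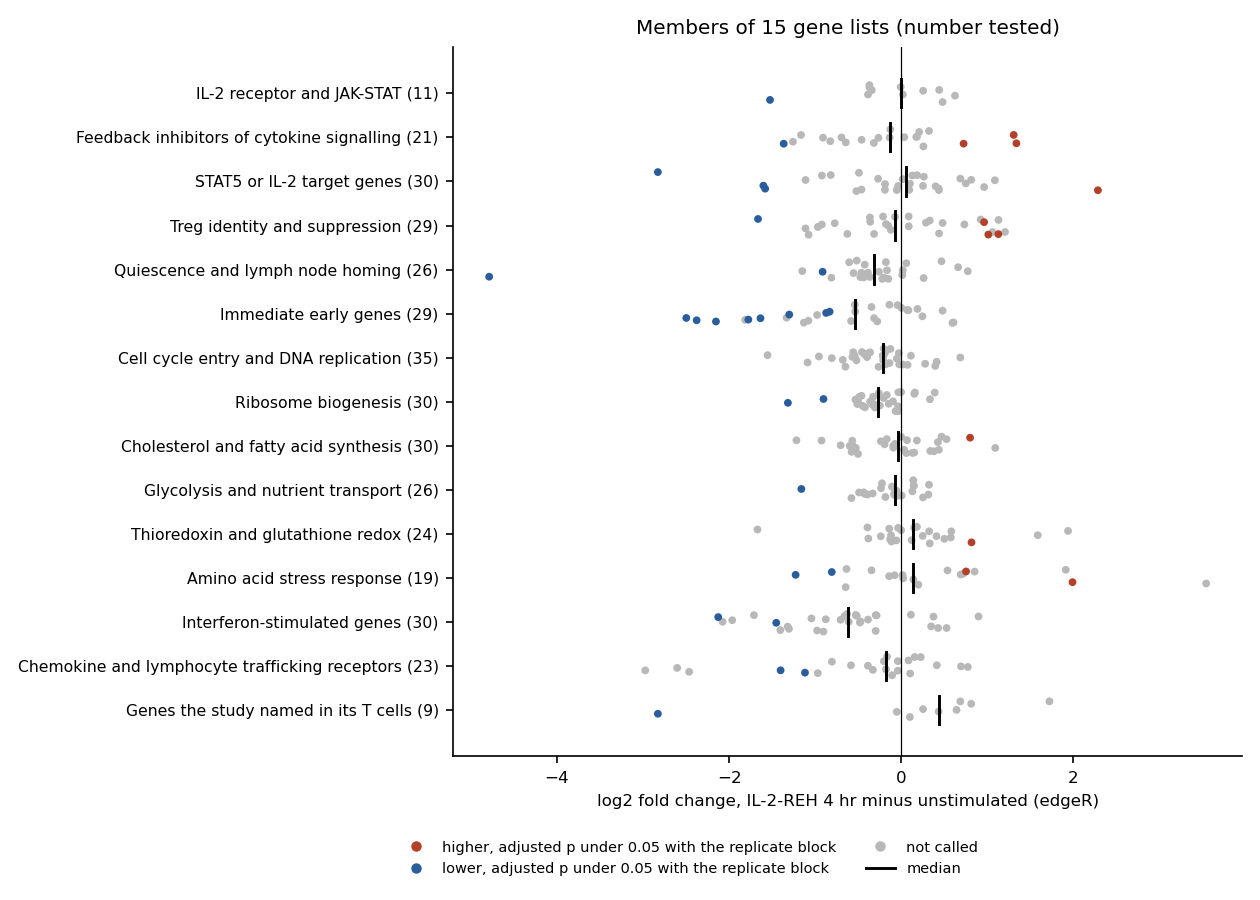
Log2 fold change between IL-2-REH at 4 hr and unstimulated Tregs (x axis) for the tested members of 15 gene lists (y axis), with points coloured where the replicate block brought an adjusted p under 0.05 and a bar at the median of each list. The medians lie between -0.62 for interferon-stimulated genes and 0.43 for the genes the study named in its T cells, and the immediate early genes have the most coloured points.

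Ctla2a, an inhibitor of cathepsin-like proteases, had 23.8, 8.84 and 16.7 RPKM and then 51.9, 24.9 and 74.4 RPKM, with the lowest treated library just above the highest unstimulated one (log2 fold change 1.56 with the block, SE 0.25, adjusted p = 0.0052). Vat1 had 5.18, 2.72 and 2.73 RPKM and then 11.2, 9.37 and 11.6 RPKM without overlap (log2 fold change 1.63 with the block, SE 0.26, adjusted p = 0.0062), and Gatsl2 and Fbxw9 had log2 fold changes of 1.61 and 1.62 with the block (adjusted p = 0.025 and 0.015). Snord47, a small nucleolar RNA inside Gas5, was lower (log2 fold change -3.62 with the block, adjusted p = 0.032), but its reads cannot be told from those of its host.

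Marker genes of macrophages fell with IL-2-REH too. Vcam1, an adhesion molecule of macrophages and vessel walls, had 0.933, 10.7 and 6.77 RPKM in unstimulated libraries and 0.0877, 0.629 and 0.369 RPKM with IL-2-REH (log2 fold change -4.00 with the block, SE 0.34, adjusted p = 0.00012), and C1qa, a chain of complement C1q, had 0.788, 10.6 and 5.50 RPKM and then 0, 0.951 and 1.08 RPKM (log2 fold change -3.23 with the block, SE 0.51, adjusted p = 0.0056). C1qb, C1qc, Csf1r and Cd5l fell as well, and 6 of 13 tested macrophage or monocyte markers were lower with the block, against 2.02% of all genes. Without the block edgeR called none and 3 had an unadjusted p under 0.05. The summed RPKM of the 13 markers was 23.5, 138 and 95.0 in unstimulated replicates 1, 2 and 3 and 16.8, 51.8 and 45.7 with IL-2-REH. In all, 10 of the 13 were lower in every pair, against 15.3% of all tested genes. The summed RPKM of 8 NK cell markers went from 3.13, 24.9 and 18.1 to 1.74, 9.77 and 10.2, with 7 of 8 lower in every pair and Klrb1c and Prf1 called with the block but not without it. Of 11 erythroid markers, 9 were lower in every pair and Car1, a carbonic anhydrase, was called with the block but not without it (1.76, 5.21 and 15.8 RPKM, then 0.0575, 0.699 and 1.35 RPKM). The summed RPKM of 8 Treg and T cell markers was 1341 to 1416 in unstimulated libraries and 965 to 1088 in treated ones. These markers did not move together. Cd4, Cd3d and Ikzf2 were lower and Foxp3 higher in every pair, and Ctla4 made up 589 RPKM of the sum in unstimulated replicate 1. Of the dendritic cell markers Itgax was called with the block but not without it. Their summed RPKM was 26.6 to 36.3 without and 16.6 to 18.4 with IL-2-REH. Most of this sum was Bst2, which is also among the interferon-stimulated genes, at 22.9, 28.7 and 24.5 RPKM and then 15.3, 11.3 and 13.6 RPKM. Of the 8 dendritic cell markers, 4 were lower in every pair. Zbtb46 went the other way in replicates 2 and 3, from 0.229 and 0.409 to 4.87 and 1.92 RPKM. No B cell, CD8+ T cell, neutrophil or platelet marker was called in either fit. No marker was at 0 in all 6 libraries. The part that RNA of other cells has in the genes described above was not tested.

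IL-2 at the same dose and time was compared with IL-2-REH directly, since its comparison with unstimulated Tregs, in which 341 genes (2.27%) were called, 176 higher (1.17%) and the others lower (1.1%), shares the controls used above. Between the 2 cytokines at 4 hr, 4 of 15009 genes (0.0267%) had an adjusted p under 0.05, all lower with IL-2-REH, and 558 had an unadjusted p under 0.05. With the block 10 were called (0.0666%), 1 higher (0.00666%) and 9 lower (0.06%). The 4 genes were Gpsm2, Fam19a3, Ppp1r3b and Txnrd1, of which the last 3 are named because they passed this test. Gpsm2, the spindle gene that rose with IL-2-REH, had 7.73, 10.03 and 7.82 RPKM with IL-2, so its unstimulated, IL-2-REH and IL-2 libraries lay in 3 separate ranges (log2 fold change -1.37, SE 0.21, adjusted p = 0.043 between the cytokines). Txnrd1, the cytosolic thioredoxin reductase, had 12.5, 16.3 and 14.04 RPKM without cytokine, 14.6, 13.2 and 11.1 RPKM with IL-2-REH and 27.8, 28.6 and 28.8 RPKM with IL-2 (log2 fold change -1.20, adjusted p = 0.013 between the cytokines). Its IL-2-REH libraries overlapped the unstimulated ones and lay below every IL-2 library. Ppp1r3b, a glycogen-targeting subunit of protein phosphatase 1, had 1.09, 1.31 and 1.24 RPKM, 1.81, 1.89 and 1.17 RPKM and 4.30, 5.80 and 3.88 RPKM in the same order of groups (log2 fold change -1.59, adjusted p = 0.013). Fam19a3, a small secreted protein, had 0.309, 0.765 and 0.469 RPKM, 1.07, 1.15 and 0.922 RPKM and 3.95, 5.42 and 3.41 RPKM (log2 fold change -2.08, adjusted p = 0.013), and it was called higher than in unstimulated Tregs with the block (adjusted p = 0.021) but not without it (0.11).

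For most of the genes described above, the direct test between the cytokines did not pass. Lama5 with IL-2 had 6.52, 12.9 and 16.5 RPKM, each above every IL-2-REH library, but the difference did not pass the correction (log2 fold change -1.42, SE 0.34, adjusted p = 0.37). Cish had 138, 224 and 135 RPKM with IL-2 (log2 fold change -0.84, SE 0.18, adjusted p = 0.23), Socs1 86.1, 102 and 56.3 RPKM (log2 fold change -1.05, SE 0.37) and Foxp3 151, 193 and 211 RPKM (log2 fold change -0.96, SE 0.25). For these 3 genes every IL-2 library was above every IL-2-REH library, without passing the correction (adjusted p = 1 for Socs1 and 0.51 for Foxp3). Sema7a had 2.41, 3.10 and 2.91 RPKM with IL-2, which overlapped the IL-2-REH libraries (log2 fold change 0.03, SE 0.20). Of the genes that fell, Dusp1 was at 32.1, 72.2 and 31.4 RPKM (log2 fold change 0.30, SE 0.34), Junb at 134, 243 and 253 RPKM (log2 fold change -0.31, SE 0.32) and Dtx1 at 1.03, 1.29 and 1.51 RPKM with IL-2 (log2 fold change -0.13, SE 0.86). Of the 47 genes, 10 of the 24 higher ones and 1 of the 23 lower ones had an unadjusted p under 0.05 between the cytokines. Of all 15009 genes, 558 did. A p above the threshold does not show that the cytokines acted alike.

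After 90 min of IL-2-REH, many of these genes stood between the unstimulated and the 4 hr levels. Lama5 had 1.51, 1.02 and 1.47 RPKM at 90 min, Ecm1 99.7, 104 and 118 RPKM and Sema7a 2.13, 2.62 and 2.02 RPKM. For these 3 genes every library at 90 min was above the unstimulated ones and below those at 4 hr. Fdps was at 11.99, 10.4 and 9.49 RPKM at 90 min, within or below its unstimulated range, whereas Cish was at 128, 117 and 97.0 RPKM, and in every pair higher than at 4 hr. Among the genes that fell, Dusp1 had 101, 144 and 105 RPKM at 90 min, Cxcl2 1.85, 1.97 and 1.52 RPKM and Dtx1 1.31, 9.41 and 5.76 RPKM. For each of these 3 genes, the 90 min library lay between the unstimulated and 4 hr libraries of its replicate number. Between 4 hr and 90 min, 0 of 15009 genes (0.0%) were called by edgeR, with 2188 at an unadjusted p under 0.05 and 251 called by DESeq2. Without replicate 1 in every group 574 were called, and with the block 6 (0.04%), 1 higher (0.00666%) and 5 lower (0.0333%) at 4 hr. Those lower were Dscam, D8Ertd82e, Vcam1, Frmd4b and Per2, and the gene that was higher was Frmd5. Per2, a clock gene named because it passed this test, had 0.764, 1.60 and 1.56 RPKM without cytokine, 0.697, 2.26 and 2.25 RPKM at 90 min and 0.196, 0.482 and 0.413 RPKM at 4 hr (log2 fold change -2.34 with the block, adjusted p = 0.023), and it was below its 90 min level in every pair.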

How the data were processed

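RNA-seq libraries were 50 bp single-end reads. Per the labels and the study's methods, the authors mapped them to mm10 (GRCm38) with Bowtie2 2.2.6 and TopHat2 2.1.1 and deposited, for each library and RefSeq transcript, the read count on its exons (uniquely mapped reads) and the RPKM, which the authors scaled by transcript length and mapped reads. Whether counting used strand is not given in the sources used here, so overlapping genes are uncertain.

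Each of 23992 symbols was represented by a single transcript, that with the highest read total in the 20 libraries. Reads of the 15 Treg libraries (5 groups of 3) were filtered with edgeR's filterByExpr (15009 genes tested), normalised by TMM and tested with edgeR 4.0.16 (quasi-likelihood F-test, two-sided, in R 4.3.3), with Benjamini-Hochberg adjustment over all tested genes and a threshold of 0.05. "Called" means past this threshold, and SE is the log2 fold change divided by the square root of F. The same fit with the replicate number as a block was run beside it, since nothing in the labels states what a number shares. Deviations from the group means correlated within every number (r of 0.542, 0.478 and 0.416), so the numbers were taken to pair the libraries, on the data alone. DESeq2 1.42.0 on the read counts and limma 3.58.1 on log2(RPKM + 1) or log2(RPKM + 0.1) (10473 genes whose RPKM averaged 1 or more) were further alternatives, and scripts were tested on simulated data.

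Named genes were the 12 highest and 12 lowest called log2 fold changes, the 8 highest and 8 lowest called with the block only at a mean of at least 5 RPKM, list members called in either fit, and 17 fixed genes. The other called genes, list members given without a call, genes called without unstimulated replicate 1 only, and genes called between the cytokines or times were added after their values were seen. The members, lists and tests were chosen with earlier results of these data known. Coordinates and promoter windows are RefSeq's on GRCm38.p6, matched by transcript for 100 of 102 named genes.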

Additional observations from a re-analysis of the deposited data

Results flagged for a closer look

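For 10 genes named above, the level with IL-2-REH at 4 hr differed from that in another treated group by a direct test (edgeR's quasi-likelihood test). Against IL-2 at 4 hr, 4 genes were lower with IL-2-REH in every library, namely Fam19a3 (log2 fold change -2.08, adjusted p = 0.013), Ppp1r3b (-1.59, 0.013), Gpsm2 (-1.37, 0.043) and Txnrd1 (-1.20, 0.013). Against IL-2-REH at 90 min, 5 genes were lower and 1 higher with the replicate block, each in 3 of 3 pairs. Those lower were Dscam (log2 fold change -2.49, adjusted p = 0.036), Vcam1 (-2.41, 0.032), Per2 (-2.34, 0.023), Frmd4b (-1.71, 0.0498) and D8Ertd82e (-1.63, 0.036), and the gene that was higher was Frmd5 (2.07, 0.0498). Vcam1 is one of the 13 macrophage or monocyte markers whose summed RPKM was also lower with IL-2-REH at 4 hr than in unstimulated Tregs, and the part of RNA from other cells in its value was not tested.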

How the results depend on the processing

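The alternative fits reuse libraries from which the 47 genes called between IL-2-REH at 4 hr and unstimulated Tregs were chosen. All 47 kept their sign in every alternative fit that could test them, but the number of calls depended on the model and on single libraries. It was 455 with the replicate block, 565 by DESeq2, 25 and 23 by limma with 1 and 0.1 RPKM added, and 1 when only the 2 groups entered the fit. Alternatives chosen after seeing the data gave 1308 (DESeq2 with the block) and 6 (only the 2 groups, with the block). Leaving out a replicate number or library gave 0 to 1545. Against IL-2 at 4 hr, where 4 genes were called, the number was 10 with the block, 58 by DESeq2, 132 by DESeq2 with the block, 0 by limma with either value added, 0 with only the 2 groups, and 0 to 1 with a replicate or library left out. Against 90 min it was 6 with the block, 251 by DESeq2, 918 by DESeq2 with the block, 856 with only the 2 groups and the block, and 0 to 574 with a replicate left out. The cause of these differences was not tested. Size factors of DESeq2, the longest transcript and no filter on low counts left the counts of calls within 1.5 times. Genes that changed sign were not called in the fit of all libraries. With a replicate or library left out, the log2 fold change ranged from -0.21 to 0.36 for Bcl2, -0.23 to 0.23 for Cdk6, -0.55 to 1.003 for Gzmb, -0.15 to 0.18 for Il2rb and -0.071 to 0.61 for Tnf. Replicates of unstated origin, a counting method with no stated strand and 3 libraries a group limit all values. Libraries of 25363734 to 51867572 reads leave genes such as Clec4d at 3 to 10 reads in the control group.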
